A study of Mus musculus with 18 samples.

Results

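Guanylate-binding proteins are encoded in mice by 2 gene clusters, and the 9 genes described here are Gbp2, Gbp3, Gbp5 and Gbp7 on chromosome 3 and Gbp4, Gbp6, Gbp8, Gbp9 and Gbp10 on chromosome 5. They were taken by symbol from a count table of 54532 genes, and chromosomes were read from the GENCODE annotation of the mm10 build. RNA was sequenced from 18 tumours of PB2 cells, a mouse breast cancer line. Of these, 8 carried the genotype p95HER2, which is HER2 (a receptor tyrosine kinase) without most of its extracellular domain, and 10 carried the genotype EV. Mice of both groups were kept on a doxycycline diet. The labels give no age, sex or batch, and they do not say how many clones the cells came from or that each tumour came from its own mouse, so the p-values below speak of the spread among these 18 samples, which may be technical in part.

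Guanylate-binding proteins are large GTPases of the dynamin superfamily. Interferon gamma induces them through its receptor, the JAK1 and JAK2 kinases and transcription factors that include IRF1, in immune cells and in many other cell types. Interferon gamma acts on promoters through the gamma-activated site (GAS), and IRF factors bind the interferon-stimulated response element (ISRE). In infected mouse cells the proteins coat the vacuoles of parasites and bacteria and promote inflammasome responses to microbial products.

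On mm10 the chromosome 3 genes lie on the + strand in the order Gbp5 (chr3:142493978-142522344), Gbp7 (chr3:142530342-142550149), Gbp3 (chr3:142560026-142573209) and Gbp2 (chr3:142620602-142638008). The chromosome 5 genes lie on the - strand. By position they are Gbp8 (chr5:105014150-105139540), Gbp9 (chr5:105077630-105139539), Gbp4 (chr5:105115767-105139586), Gbp10 (chr5:105215699-105239533) and Gbp6 (chr5:105270702-105293698). As annotated, Gbp4, Gbp8 and Gbp9 overlap and share 60 or 61 exon bases.

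The upstream sequences of the chromosome 3 genes are shown because all 4 held a match to the ISRE core, and these are the genes whose mRNA is followed across the tumours below. RefSeq promoter windows of build GRCm38.p6 matched 4 of the 9 genes, and each window runs from 250 bases before to 50 bases after the start. The start is that of RefSeq, and for Gbp5 the whole window lies inside the gene as annotated above. The 250 bases before the start are printed 5′ to 3′ on the + strand, and capitals mark matches to the ISRE core (GAAA, any 2 bases and GAAA, or on the other strand TTTC, any 2 bases and TTTC) and to GAS (TTC, any 3 bases and GAA, which reads the same on both strands).
Gbp2 (chr3:142620413-142620662): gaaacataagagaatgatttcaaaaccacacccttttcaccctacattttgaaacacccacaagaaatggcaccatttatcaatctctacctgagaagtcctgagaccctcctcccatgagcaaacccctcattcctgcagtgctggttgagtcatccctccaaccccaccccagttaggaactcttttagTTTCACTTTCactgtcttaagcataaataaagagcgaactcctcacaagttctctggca
Gbp3 (chr3:142559794-142560043): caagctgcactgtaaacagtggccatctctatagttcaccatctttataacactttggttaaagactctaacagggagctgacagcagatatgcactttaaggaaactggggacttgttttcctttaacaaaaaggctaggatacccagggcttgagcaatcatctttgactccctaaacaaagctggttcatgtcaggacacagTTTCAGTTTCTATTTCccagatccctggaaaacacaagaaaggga
Gbp5 (chr3:142496684-142496933): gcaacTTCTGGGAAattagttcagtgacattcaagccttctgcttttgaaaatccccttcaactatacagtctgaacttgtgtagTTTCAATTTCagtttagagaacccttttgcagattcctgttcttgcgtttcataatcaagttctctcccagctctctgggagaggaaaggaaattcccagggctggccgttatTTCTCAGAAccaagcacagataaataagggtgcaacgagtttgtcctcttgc
Gbp7 (chr3:142530086-142530335): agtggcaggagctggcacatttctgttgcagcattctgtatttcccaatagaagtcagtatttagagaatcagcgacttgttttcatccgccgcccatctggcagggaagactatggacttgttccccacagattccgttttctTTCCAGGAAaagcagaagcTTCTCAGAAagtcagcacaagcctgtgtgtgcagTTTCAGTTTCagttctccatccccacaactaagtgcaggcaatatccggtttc
The ISRE core began 59 bases before the start in Gbp2, 53 bases before it in Gbp7 and 165 bases before it in Gbp5. Gbp3 had overlapping matches that began 45 and 39 bases before the start, and its second listed window held none. GAS was matched in Gbp5, at 245 and 52 bases before the start, and in Gbp7, at 106 and 87 bases before it. No GAS match was in the windows of Gbp2 and Gbp3, and no GAS match overlapped an ISRE match. Of 32851 RefSeq promoter windows of this length, 1131 (3.44%) held the ISRE core, 2726 (8.30%) held GAS and 149 (0.454%) held both. These matches describe letters in the windows and do not show that a factor binds there.

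Across the tumours the 9 genes went up and down together, and none of them differed between p95HER2 and EV tumours beyond the spread within the groups. Values are CPM, each count divided by its TMM-scaled library total and multiplied to a common scale. Log2 fold changes (p95HER2 over EV) carry a standard error (SE), and adjusted p-values come from edgeR's quasi-likelihood test with Benjamini-Hochberg adjustment over the 17123 genes tested. All 9 genes passed the filter on low counts. At an adjusted p under 0.05, 0 of the 9 were called, against 10.2% of all genes tested. At an unadjusted p under 0.05 the count was also 0 of 9, against 26.3% of all genes. DESeq2 and limma voom called 0 of 9 as well, against 2367 and 2277 of the 17123 genes. All 9 log2 fold changes were below 0, with a median of -0.41, while the median over all genes tested was -0.01 and 52.3% of them were below 0. The 9 genes are not separate evidence of a direction, since their values ran together from tumour to tumour.

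Library totals were 32686558 to 34804640 counts in p95HER2 tumours and 35030920 to 38464541 counts in EV tumours. Neither these totals nor the tumour tags in the labels overlapped between the groups, so an effect of sequencing depth, or of whatever the tags follow, and an effect of the genotype cannot be told apart. As a check of the labels, reads under Erbb2, the mouse HER2 gene, had a lowest value of 122, a median of 143 and a highest value of 231 CPM in p95HER2 tumours, against 60.4, 68.1 and 74.9 CPM in EV tumours. Epithelial markers were present in every tumour, with a summed level of 1943 to 2507 CPM in p95HER2 tumours and 1858 to 3140.5 CPM in EV tumours.

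**Figure D1:**
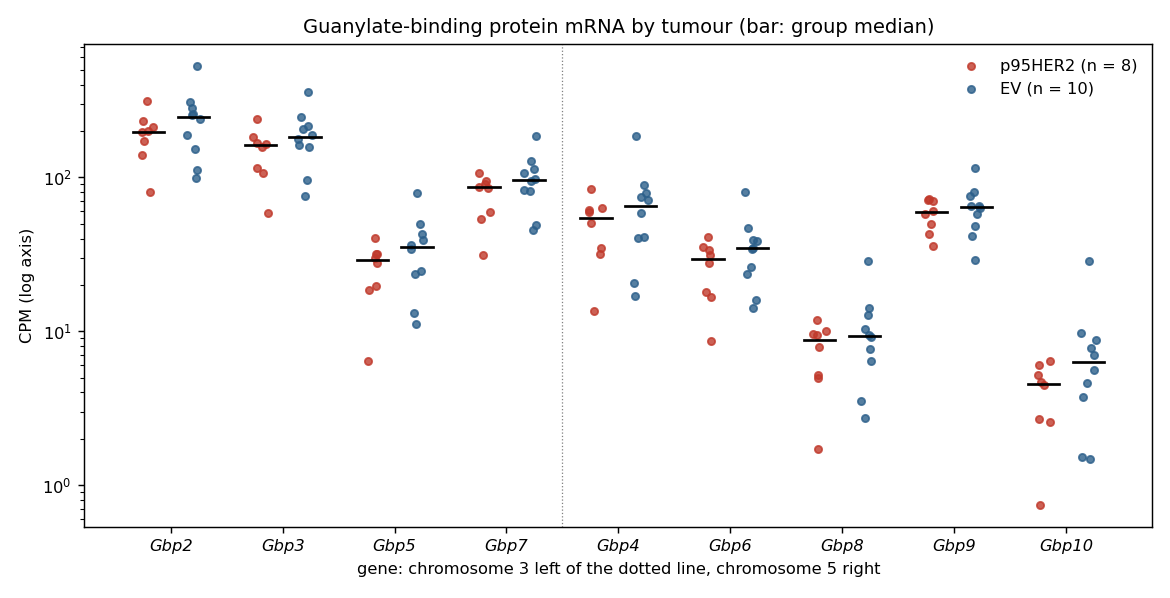
CPM of each of the 9 genes on a log axis, 1 point per tumour, with p95HER2 tumours (n = 8) left of EV tumours (n = 10) and a bar at each group's median. The groups overlapped for all 9 genes, and in each gene the highest point is the tumour EV 7.

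Gbp2, a prenylated member that coats the vacuole of Toxoplasma in mouse cells, had the highest level of the 9 per kb of exon. Its lowest, median and highest values were 79.7, 198 and 313 CPM in p95HER2 tumours, against 99.5, 246 and 528 CPM in EV tumours. The lowest value belonged to p95HER2 4 and the highest to EV 7, and 7 of the 8 p95HER2 tumours lay below the EV median while the ranges overlapped. Means were 193 ± 68.2 CPM in p95HER2 tumours and 242 ± 123 CPM in EV tumours (SD, n = 8 and 10). The log2 fold change was -0.33 (SE 0.30, 95% interval -0.97 to 0.31, edgeR adjusted p = 0.536).

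Gbp3, which is also recruited to Toxoplasma vacuoles in mouse cells, had 59.0, 161 and 239 CPM as lowest, median and highest value in p95HER2 tumours, against 75.8, 184 and 356 CPM in EV tumours. Again 7 of 8 p95HER2 tumours were below the EV median, within overlapping ranges. The log2 fold change was -0.34 (SE 0.28, 95% interval -0.93 to 0.26, edgeR adjusted p = 0.485). Gbp7, which promotes assembly of the NADPH oxidase on phagosomes in mouse macrophages, had 31.4, 85.8 and 106 CPM in p95HER2 tumours, against 45.7, 95.5 and 185 CPM in EV tumours. Its groups overlapped in the same way, with p95HER2 4 lowest and EV 7 highest. The log2 fold change of Gbp7 was -0.38 (SE 0.26, 95% interval -0.93 to 0.18, edgeR adjusted p = 0.395). Gbp5, a prenylated member that promotes NLRP3 inflammasome assembly in mouse macrophages, had 6.41, 28.9 and 40.3 CPM in p95HER2 tumours, against 11.1, 35.2 and 78.6 CPM in EV tumours. Gbp5 gave a log2 fold change of -0.45 (SE 0.37, 95% interval -1.23 to 0.32, edgeR adjusted p = 0.471). Over the 4 genes of chromosome 3 the median log2 fold change was -0.36.

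On chromosome 5 the pattern of high and low tumours was similar. Gbp4 had 13.4, 54.7 and 83.4 CPM as lowest, median and highest value in p95HER2 tumours, against 16.8, 64.9 and 186 CPM in EV tumours. The value of EV 7 was 186 CPM and the next EV tumour had 89.2 CPM, while the other EV tumours lay within or near the p95HER2 range. Means were 49.7 ± 22.0 CPM in p95HER2 tumours and 67.6 ± 48.2 CPM in EV tumours (SD, n = 8 and 10), with a log2 fold change of -0.45 (SE 0.42, 95% interval -1.34 to 0.45, edgeR adjusted p = 0.547). Gbp6, recruited to Toxoplasma vacuoles in mouse cells, had 8.65, 29.4 and 40.8 CPM in p95HER2 tumours, against 14.2, 34.5 and 79.6 CPM in EV tumours. The ranges of Gbp6 overlapped, and its log2 fold change was -0.41 (SE 0.33, 95% interval -1.12 to 0.29, edgeR adjusted p = 0.469).

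Gbp8 had 1.73, 8.72 and 11.8 CPM as lowest, median and highest value in p95HER2 tumours, against 2.75, 9.28 and 28.5 CPM in EV tumours. Only 4 of the 8 p95HER2 tumours were below the EV median of Gbp8, the fewest of the 9 genes. Its log2 fold change was -0.46 (SE 0.41, 95% interval -1.32 to 0.39, edgeR adjusted p = 0.512). Gbp9, recruited to Toxoplasma vacuoles in mouse cells, varied least. It had 35.6, 59.2 and 72.7 CPM in p95HER2 tumours, against 29.0, 64.3 and 115 CPM in EV tumours, so that its lowest value was in an EV tumour. The log2 fold change of Gbp9 was the smallest of the 9 at -0.16 (SE 0.21, 95% interval -0.61 to 0.30, edgeR adjusted p = 0.695).

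As counted, Gbp10 had the lowest level of the 9 per kb of exon and varied most. Reads of the sequence that Gbp10 shares with other genes may be missing from its count. Its lowest, median and highest values were 0.746, 4.56 and 6.38 CPM in p95HER2 tumours, from 25 to 218 counts per library, against 1.49, 6.29 and 28.6 CPM in EV tumours, from 55 to 1032 counts. EV 7, with 28.6 CPM, stood above the next EV tumour at 9.75 CPM. Means were 4.08 ± 1.93 CPM in p95HER2 tumours and 7.88 ± 7.80 CPM in EV tumours (SD, n = 8 and 10). The log2 fold change was -0.95 (SE 0.51, 95% interval -2.03 to 0.13, edgeR p = 0.0819, adjusted p = 0.254). The median log2 fold change over the 5 genes of chromosome 5 was -0.45.

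**Figure D2:**
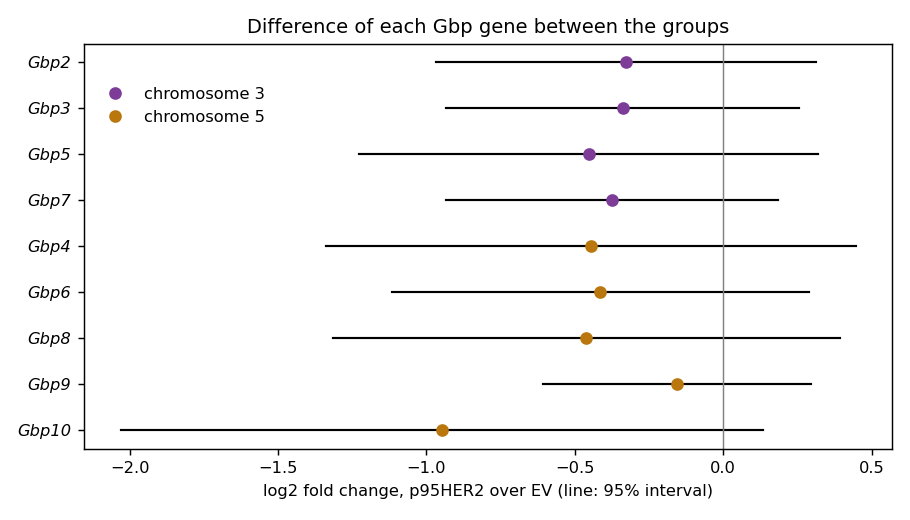
Log2 fold change (p95HER2 over EV) of each gene from the edgeR test, with lines for the 95% interval and colours for the chromosome. Every point lies below 0, from -0.16 for Gbp9 to -0.95 for Gbp10, and every interval includes 0.

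The intervals do not show that the groups had the same levels: that of Gbp10 included a log2 fold change of -2.03, and that of Gbp9, the narrowest, included -0.61. Without the tumour EV 7 the log2 fold changes were between -0.45 (Gbp10) and -0.02 (Gbp9), with a median of -0.19 and edgeR adjusted p from 0.540 to 0.958. Gbp4 was at -0.13 and Gbp2 at -0.12 without it. Without p95HER2 4, the lowest tumour for 8 of the 9 genes, the log2 fold changes were between -0.78 and -0.08. With the level of T cell and cytotoxic markers as a covariate all 9 log2 fold changes were above 0, from 0.34 (Gbp7) to 0.73 (Gbp4), with edgeR adjusted p from 0.0854 to 0.385. With the macrophage level as a covariate they ran from 0.03 (Gbp10) to 0.31 (Gbp8), also with none of the 9 called. Of all genes tested, 554 were called with the T cell and cytotoxic covariate and 172 with the macrophage covariate, against 1743 with none.

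Compared per kb of exon, the order of the mean CPM over all 18 tumours was Gbp2, Gbp3, Gbp7, Gbp9, Gbp4, Gbp6, Gbp5, Gbp8 and Gbp10. This scale divides by all exon bases of a gene, and reads of stretches shared with other genes may be missing from its count. The places of Gbp6 and Gbp10, which share the largest part of their sequence, are therefore uncertain. Gbp2 stood at 76.6 ± 27.1 CPM per kb in p95HER2 tumours and 96.1 ± 48.9 CPM per kb in EV tumours, and Gbp10 at 1.05 ± 0.497 CPM per kb in p95HER2 tumours and 2.04 ± 2.01 CPM per kb in EV tumours (SD, n = 8 and 10). In all 18 tumours Gbp2 was above Gbp3, Gbp3 above Gbp7, Gbp5 above Gbp8 and Gbp8 above Gbp10. Gbp7 was above Gbp9, Gbp9 above Gbp4 and Gbp4 above Gbp6 in 17 of 18 tumours. Gbp6 was above Gbp5 in 15 of 18, so that the levels of these neighbours in the order lay close together.

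The summed CPM of the 9 genes had a lowest value of 237, a median of 648 and a highest value of 910.5 in p95HER2 tumours, against 309, 745 and 1585 in EV tumours. Gbp2 made up 29.7% to 37.1% of this sum in p95HER2 tumours and 27.3% to 36.2% in EV tumours. Gbp9 was 15.03% of it in p95HER2 4, the tumour with the lowest sum, and 7.25% in EV 7, the tumour with the highest, but its share did not follow the sum step by step: it was 9.38% in EV 1, the tumour with the second lowest sum.

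Within the groups, the tumour-to-tumour spread of these genes was among the widest of the expressed genes. The within-group SD of log2(CPM + 0.5) was 0.47 for Gbp9 and 1.01 for Gbp10, with the other 7 genes between them, against a median of 0.14 over 13456 genes whose mean log2 CPM was 1 or more. Of those genes, 95.4% had a smaller SD than Gbp9 and 99.3% a smaller SD than Gbp10. From the lowest to the highest of the 18 tumours the CPM differed by a factor of 3.96 for Gbp9, 6.62 for Gbp2, 13.8 for Gbp4 and 38.3 for Gbp10.

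High and low tumours were the same for nearly every gene. EV 7 ranked 1 for all 9 genes and EV 9 ranked 2 or 3. At the other end, p95HER2 4 ranked 17 or 18, EV 1 ranked 16 to 18 and EV 10 ranked 16 or 17. The highest p95HER2 tumour, p95HER2 6, ranked 2 to 7. After each group's mean was subtracted, Pearson's r of log2(CPM + 0.5) over the 18 tumours lay between 0.90 and 0.99 for all 36 pairs of genes, with a median of 0.98. Pairs on chromosome 3 had r of 0.96 to 0.99, pairs on chromosome 5 had 0.92 to 0.99 and pairs with 1 gene on each chromosome had 0.90 to 0.99. The pairs share the same 18 libraries, and r is given as a description. The spread around the group means, relative to that of Gbp2, was 0.72 for Gbp9, 1.41 for Gbp4 and 1.53 for Gbp10.

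**Figure D3:**
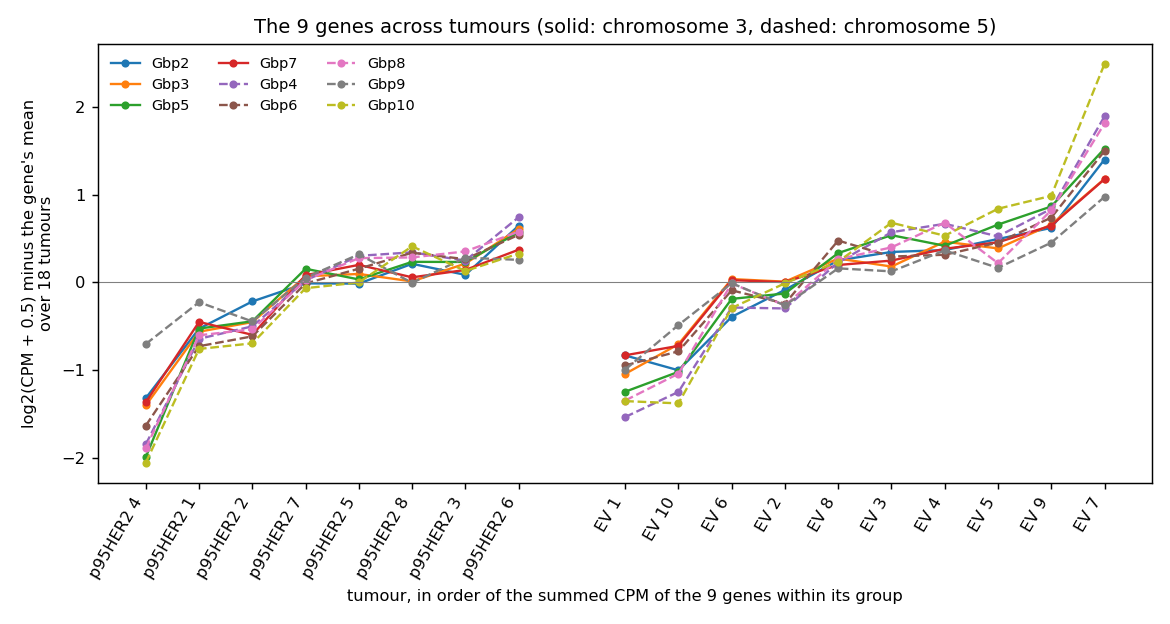
Log2(CPM + 0.5) minus the gene's mean over the 18 tumours, 1 line per gene, with p95HER2 tumours left of EV tumours and tumours ordered by the summed CPM of the 9 genes within each group. The lines run together, from p95HER2 4 and EV 1 at the low ends to EV 7 at the high end, with Gbp10 spread widest and Gbp9 least.

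Among 13447 other genes, those most like the 9 by the same r over the 18 tumours were 13 genes, most of them known to be induced by interferon. Ifi47, an immunity-related GTPase, was first for Gbp4 (r = 0.99), Gbp2 (0.98), Gbp8 (0.98) and Gbp10 (0.98). Cxcl9, a chemokine that attracts T cells, was first for Gbp5 (r = 0.99), and Igtp, an immunity-related GTPase, was first for Gbp6 (r = 0.99). H2-T23 and H2-T22, non-classical MHC class I genes, were the closest to Gbp3 (r = 0.99 each), and Gm12250 was the closest to Gbp7 (r = 0.99). For Gbp9, Parp12 (r = 0.97), Stat2 (0.96), the STAT of type I interferon signalling, and Gm4951 (0.96) came first. Stat2 had r of 0.84 (Gbp2) to 0.93 (Gbp8) with the other 8 genes, and Parp12 and Gm4951 were closer to Gbp7 (r = 0.97 and 0.98) than to Gbp9. Iigp1, Irgm1 and Gm12185 were also among the 3 closest of at least 1 of the 9. These values are a description.

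Counts of the closest paralogs are uncertain, since the counting could have lost or split their shared reads. Coding sequences of the chromosome 5 genes were 89.6% to 98.4% identical in pairs, highest between Gbp6 and Gbp10. On chromosome 3 they were 61.6% to 78.3% identical, highest between Gbp3 and Gbp7, and pairs across the clusters were 60.9% to 75.0% identical. Of all stretches of 100 bases in its transcripts, 60.9% in Gbp10, 37.3% in Gbp6 and 4.39% in Gbp8 also occurred in another gene, against at most 1.65% in each of the other 6, where the annotated genes Gm43302 and Gm43802 that overlap the clusters were left out. With these counted as well the shares were 73.5% in Gbp10, 64.5% in Gbp6 and 10.0% in Gbp7. In the annotation 46.3% of the exon bases of Gbp10 and 29.0% of those of Gbp6 also belong to Gm43302, a read-through gene, and 11.3% of those of Gbp7 to Gm43802.

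Further genes with a Gbp symbol were too low to test. Gbp2b, on chromosome 3, had 37 counts summed over the p95HER2 tumours and 258 over the EV tumours, of which 143 were in EV 7. Gbp11, a polymorphic pseudogene on chromosome 5, had 77 counts over the p95HER2 tumours and 149 over the EV tumours.

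The genes of interferon gamma signalling, from ligand to feedback, did not pass the test either. Of 15 listed, all tested, 0 were called by edgeR, against 10.2% of all genes tested. An unadjusted p under 0.05 was found for 3 of the 15, against 26.3% of all genes tested, and the median log2 fold change was -0.14. Ifng, the ligand, had a lowest value of 0.119, a median of 0.339 and a highest value of 0.673 CPM in p95HER2 tumours, against 0.0545, 0.548 and 2.74 CPM in EV tumours. The p95HER2 range lay within the EV range, and the log2 fold change was -1.37 (SE 0.56, edgeR adjusted p = 0.123). The receptor chains Ifngr1 and Ifngr2 had log2 fold changes of 0.05 (adjusted p = 0.579) and 0.02 (adjusted p = 0.875), and the receptor kinases Jak1 and Jak2 had -0.01 (adjusted p = 0.916) and -0.03 (adjusted p = 0.786), by the same test. Irf1, an interferon-induced transcription factor, averaged 155 ± 30.5 CPM in p95HER2 tumours and 168 ± 35.7 CPM in EV tumours (edgeR adjusted p = 0.652). Socs1, the feedback inhibitor of JAK kinases, had a log2 fold change of -0.30 (SE 0.29, edgeR adjusted p = 0.562), and it was at 0.53 (adjusted p = 0.0339) with the T cell and cytotoxic level as a covariate.

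Of 9 genes of type I interferon signalling, 0 were higher (background 5.73%) and 1 was lower (background 4.45%), with a median log2 fold change of -0.13. The gene was Irf7, an amplifier of type I interferon production, at 102 ± 15.3 CPM in p95HER2 tumours and 149 ± 46.6 CPM in EV tumours (log2 fold change -0.55, SE 0.17, edgeR adjusted p = 0.0489). The call on Irf7 was lost in 15 of the 18 fits without 1 tumour. At an unadjusted edgeR p under 0.05 the count was 5 of the 9, in both directions, against 26.3% of all genes tested. Stat2 and Irf9, its partner in the ISRE-binding complex, had log2 fold changes of -0.26 (adjusted p = 0.332) and -0.04 (adjusted p = 0.721) by edgeR. Of the 6 immunity-related GTPases listed as partners of the guanylate-binding proteins, 0 were called by edgeR (10.2% of all genes tested). An unadjusted p under 0.05 was found for 0 of the 6 (26.3% of all genes tested), with a median log2 fold change of -0.23.

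Some genes that act on the proteins or after them were called, in both directions. Of 14 genes of prenylation, ATG8 conjugation and regulation of guanylate-binding proteins, 13 were tested, 1 was higher (5.73% of all genes tested) and 0 were lower (4.45% of all genes tested), with a median log2 fold change of -0.06. Unadjusted edgeR p was under 0.05 for 3 of the 13, against 26.3% of all genes tested. Atg16l1, part of the ATG8 conjugation machinery, rose to 47.0 ± 2.04 CPM in p95HER2 tumours, against 41.7 ± 3.92 CPM in EV tumours (log2 fold change 0.17, SE 0.05, edgeR adjusted p = 0.0413), a call lost in 13 of the 18 fits without 1 tumour. Of 11 inflammasome genes, 1 was higher and 3 were lower, against the same 5.73% and 4.45% of all genes tested, with a median log2 fold change of -0.29. Unadjusted edgeR p was under 0.05 for 6 of the 11, in both directions, against the same 26.3%.

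Pycard, the adaptor of several inflammasomes, fell to 3.0 ± 0.933 CPM in p95HER2 tumours, against 6.23 ± 1.64 CPM in EV tumours (log2 fold change -1.05, SE 0.19, edgeR adjusted p = 0.00183). Aim2, a sensor of cytosolic DNA, fell to 3.14 ± 0.475 CPM in p95HER2 tumours, against 4.94 ± 1.10 CPM in EV tumours (log2 fold change -0.65, SE 0.14, edgeR adjusted p = 0.00725). Gsdmd, the pore-forming effector of pyroptosis, was at 5.55 ± 1.76 CPM in p95HER2 tumours and 8.18 ± 1.86 CPM in EV tumours (log2 fold change -0.56, SE 0.17, edgeR adjusted p = 0.0379), and its call was lost in 11 of the 18 fits without 1 tumour. Casp8, a protease of cell death pathways, rose to 60.1 ± 2.34 CPM in p95HER2 tumours, against 53.2 ± 3.53 CPM in EV tumours (log2 fold change 0.18, SE 0.04, edgeR adjusted p = 0.0113). Casp4, the mouse sensor of cytosolic lipopolysaccharide, had a log2 fold change of 0.08 (SE 0.10, edgeR adjusted p = 0.663). With the macrophage level as a covariate Pycard was at -0.49 (adjusted p = 0.201) and Aim2 at -0.33 (adjusted p = 0.433), and the other 4 genes called here and above, Irf7, Gsdmd, Casp8 and Atg16l1, had adjusted p of 0.892, 0.817, 0.0512 and 0.594, so that none of the 6 was called. In that fit only 172 of the 17123 genes tested were called, against 1743 with no covariate, so most calls of any kind were lost. With the T cell and cytotoxic level as a covariate Pycard was called, while Irf7, Aim2, Gsdmd, Casp8 and Atg16l1 were not (adjusted p from 0.0758 to 0.676). There 554 of all genes tested were called. Against a fold of 1.5 none of these 6 genes was called, and 52 of all genes tested were.

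Several T cell, cytotoxic and macrophage markers were lower in p95HER2 tumours. Of all genes tested 4.45% were called lower and 5.73% higher. In these bulk samples fewer cells of a type and less RNA per cell cannot be told apart. The summed T cell markers were 9.30 to 42.3 CPM in p95HER2 tumours and 17.6 to 95.4 CPM in EV tumours, with 2 of 12 genes called lower, and the cytotoxic and NK cell markers were 10.6 to 33.0 CPM in p95HER2 tumours and 17.9 to 82.5 CPM in EV tumours, with 4 of 9 tested called lower. Macrophage and monocyte markers summed to 368 to 913 CPM in p95HER2 tumours and 607 to 1397 CPM in EV tumours, with 6 of 10 called lower. For all 3 of these lists p95HER2 4 was lowest and EV 7 highest, as for 8 of the 9 guanylate-binding protein genes. Summed dendritic cell markers had the same extremes, 32.1 CPM in p95HER2 4 and 100.2 CPM in EV 7. Summed B cell markers were also highest in EV 7 but lowest in p95HER2 2. Summed neutrophil markers did not follow this order, with 25.7 CPM in p95HER2 4, the second highest value, and 16.7 CPM in EV 7. Endothelial, fibroblast, epithelial, adipocyte and skeletal muscle sums had other tumours at both ends. Of the other markers tested, 1 of 8 dendritic cell and 1 of 3 neutrophil genes were called higher, 2 of 3 B cell, 1 of 8 fibroblast and 6 of 6 adipocyte genes were called lower, 0 of 8 endothelial and 0 of 7 skeletal muscle genes were called, and of 8 epithelial genes 1 was higher and 1 lower. No list had a marker at 0 in every tumour. The part of these cells in the levels of the 9 genes was not tested. The covariate fits above and the relations below use marker levels only.

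In all, 63 relations were computed, of 7 measures with each of the 9 genes, on log2(CPM + 0.5) over the 18 tumours after each group's mean was subtracted. P-values come from 100000 permutations within the groups, two-sided, with 1e-05 the smallest they can give, and were adjusted over the 63. Since the 9 genes ran together, the 9 relations of a measure are not separate evidence. Irf1 gave r of 0.90 to 0.97 (rho = 0.79 to 0.96, adjusted permutation p of r = 5.73e-05 for each and of rho from 0.000105 to 0.00098), with 0.87 to 0.99 within the p95HER2 tumours and 0.94 to 0.98 within the EV tumours, and 0.90 to 0.96 without the 2 tumours farthest from the median of Irf1, p95HER2 4 and EV 10.

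The ligand Ifng gave r of 0.76 to 0.82 with the 9 genes (rho = 0.71 to 0.83, adjusted permutation p of r from 9.69e-05 to 0.000723 and of rho from 0.000242 to 0.00352). Its r was 0.45 to 0.69 within the p95HER2 tumours, where Ifng was at most 0.673 CPM, and 0.86 to 0.94 within the EV tumours, and without EV 7 and EV 9 it was 0.66 to 0.75. The T cell and cytotoxic marker level gave r of 0.82 to 0.90 (rho = 0.76 to 0.87, adjusted permutation p of r from 5.73e-05 to 0.000315 and of rho from 0.000105 to 0.00183), with 0.89 to 0.98 within the p95HER2 tumours and 0.76 to 0.87 within the EV tumours. Without p95HER2 4 and EV 7 its r was 0.74 to 0.86.

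Macrophage markers gave r of 0.47 to 0.62 (rho = 0.50 to 0.65, adjusted permutation p of r from 0.0206 to 0.0786 and of rho from 0.0134 to 0.0702). Within the p95HER2 tumours r was 0.82 to 0.95 and within the EV tumours 0.27 to 0.37; the difference between the groups was not tested. Without p95HER2 4 and p95HER2 1 the range was 0.35 to 0.47. Skeletal muscle markers gave r of 0.46 to 0.62 (rho = 0.35 to 0.50, adjusted permutation p of r from 0.0214 to 0.13 and of rho from 0.07 to 0.229), but -0.17 to 0.04 without EV 1 and p95HER2 4, so this relation rests on those 2 tumours. With all tumours its r was 0.67 to 0.85 within the p95HER2 group and 0.33 to 0.58 within the EV group. Endothelial markers gave r of -0.17 to -0.03 (rho = -0.22 to 0.03, adjusted permutation p of r from 0.582 to 0.917 and of rho from 0.512 to 0.946), and epithelial markers gave r of -0.52 to -0.27 (rho = -0.36 to -0.01, adjusted permutation p of r from 0.058 to 0.357 and of rho from 0.207 to 0.987). The epithelial r was -0.23 to -0.02 within the p95HER2 tumours and -0.67 to -0.41 within the EV tumours, a difference that was not tested. Without EV 1 and p95HER2 8 it was -0.36 to -0.15.

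**Figure D4:**
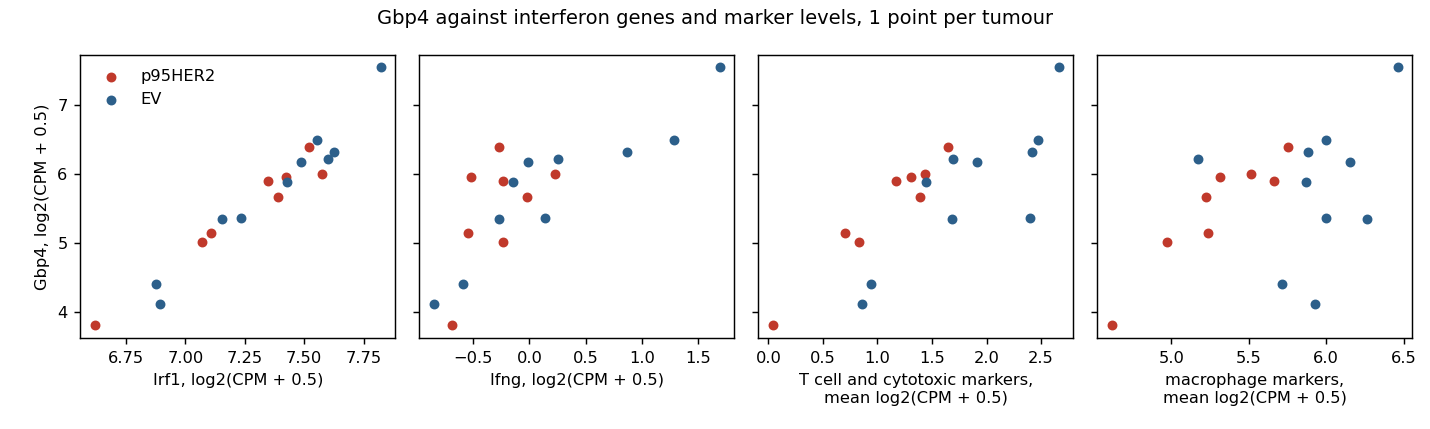
Gbp4 against Irf1, Ifng, the T cell and cytotoxic marker level and the macrophage marker level, each as log2(CPM + 0.5), 1 point per tumour, with p95HER2 and EV tumours in different colours. Gbp4 followed Irf1 most closely (r = 0.97 after group means were subtracted) and the macrophage level least (r = 0.53).

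Genes beside the clusters were chosen by position alone and compared between the groups. Within 2 Mb of the chromosome 3 cluster 9 other genes whose mean log2 CPM was 1 or more had a median log2 fold change of 0.00. By edgeR 0 of these 9 were called, against 10.2% of all genes tested. The nearest were Pdlim5 (log2 fold change -0.14, edgeR adjusted p = 0.363) and Kyat3 (0.03, adjusted p = 0.880). Their mean log2(CPM + 0.5) was 5.81 ± 0.06 in p95HER2 tumours and 5.76 ± 0.05 in EV tumours (SD, n = 8 and 10, difference 0.05, two-sided exact permutation p = 0.0764 over 43758 assignments, adjusted over the 2 clusters 0.0764). The difference passed the threshold without EV 1 (adjusted exact p = 0.0302) and without p95HER2 8 (adjusted exact p = 0.0194). Within 1 Mb it was 0.030 (adjusted exact p = 0.347).

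Near the chromosome 5 cluster 20 such genes had a median log2 fold change of -0.05, with 4 called higher and 1 lower, against 5.73% and 4.45% of all genes tested. Their mean log2(CPM + 0.5) was 5.00 ± 0.08 in p95HER2 tumours and 4.92 ± 0.04 in EV tumours (SD, n = 8 and 10, difference 0.08, two-sided exact permutation p = 0.00804, adjusted over the 2 clusters 0.0161). Within 1 Mb the difference was 0.208 (adjusted exact p = 0.000137). The median log2 fold change of the 20 genes was below 0 all the same, so the raised mean level was not shared by most of them. Spp1 and Dmp1 had the largest log2 fold changes, and the mean level without them was not computed. The nearest, Zfp951 and Lrrc8b, had log2 fold changes of -0.08 (edgeR adjusted p = 0.723) and 0.08 (adjusted p = 0.588). Those called were Spp1, encoding osteopontin (1.29, adjusted p = 0.00876), Dmp1, a matrix protein of bone and dentin (0.65, adjusted p = 0.00576), Lrrc8c, a subunit of volume-regulated anion channels (0.43, adjusted p = 0.00908), Pkd2, a cation channel (0.14, adjusted p = 0.0408), and Klhl8 (-0.34, adjusted p = 0.0127), all by edgeR.

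**Figure D5:**
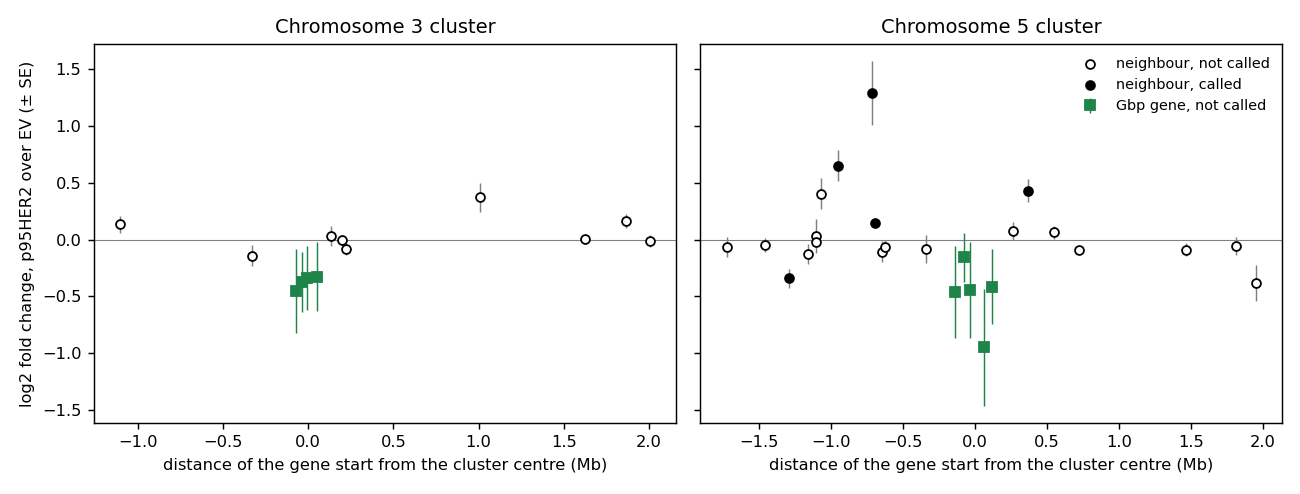
Log2 fold change (p95HER2 over EV, ± SE) of the Gbp genes and of other genes within 2 Mb, against the distance of the gene start from the centre of the chromosome 3 cluster (left) and of the chromosome 5 cluster (right). Filled circles are neighbours called by edgeR, 0 of 9 on chromosome 3 and 5 of 20 on chromosome 5, against 10.2% of all genes tested.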

How the data were processed

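RNA-seq counts per gene were deposited by the authors as unscaled read counts for 18 tumours. The tools were STAR 2.5 and HTSeq 0.6.1, with genome build mm10, per the submitters' processing notes. The annotation release, like the strand option of the counting, was not given in the sources used here. Counts of overlapping antisense genes and of near-identical paralogs are therefore uncertain. Libraries were directional, per the labels' protocols. Symbols of 54409 genes and coordinates were taken from GENCODE M21.

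Genes were kept by filterByExpr (minimum count 10, minimum total 15), scaled by TMM and tested with edgeR 4.0.16 (R 4.3.3), robust quasi-likelihood, on all 18 tumours with no covariate, and called at a Benjamini-Hochberg adjusted p under 0.05. Correlations and neighbour levels used log2(CPM + 0.5), and a marker level was the mean of this over the list. Depth is given by the library totals in the report, and CPM values carry counting error as well as the spread shown. The test was also run on simulated data with known changes, and no result of that run is used here.

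Named genes were the 9 genes, other Gbp symbols, Erbb2, set genes of the pathway lists and any called there, for each of the 9 the 3 genes with the highest correlation, and of the neighbours the nearest and those called; 1 gene that this rule takes is not reported here. The members and lists were chosen with earlier results of these data known. Alternatives were scaling by RLE or by library totals, a filter at 1 CPM in 8 libraries or none, DESeq2 1.42.0, limma 3.58.1 voom, glmTreat against a fold of 1.5, marker levels as covariates, other windows and pseudocounts, and each tumour left out. Replicate numbers follow accession order and only name a tumour.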

Additional observations from a re-analysis of the deposited data

Results flagged for a closer look

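In the following cases the highest tumour of the EV group stood far from the other 9, measured by its gap to the nearest tumour over the range of the group. Of 54 group checks 8 were met. The checks are not independent of each other, since the genes ran together, so this count was not set against chance. EV 7 had 528 CPM of Gbp2, with the next EV tumour at 307 CPM, and 186 CPM of Gbp4, with the next at 89.2 CPM. Its Gbp6 was at 79.6 CPM, with the next at 46.8 CPM, and its Gbp8 was at 28.5 CPM, with the next at 14.1 CPM. Gbp10 was at 28.6 CPM in EV 7 and at 9.75 CPM in the next tumour. For Gbp2b, which was too low to test, EV 7 had 3.96 CPM and the next tumour 0.845 CPM. The summed dendritic cell markers were at 100.2 CPM in EV 7 and at 68.8 CPM in the next tumour. In EV 1 the summed epithelial markers were at 3140.5 CPM, with the next EV tumour at 2345 CPM. The first 7 of these cases come from 1 tumour, and their cause was not tested.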

How the results depend on the processing

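None of the 9 genes was called under any of the 28 alternatives run, 10 other settings and 18 fits without 1 tumour. Without 1 tumour the log2 fold changes of the 9 stayed below 0, and those without EV 7 are in the report. The setting without EV 1 and p95HER2 4, which have the lowest skeletal muscle signal of their groups, was added after seeing the data; it gave -0.91 to -0.16. With the T cell and cytotoxic level as a covariate the log2 fold changes turned to 0.44 (Gbp2), 0.42 (Gbp3), 0.51 (Gbp5), 0.34 (Gbp7), 0.73 (Gbp4), 0.42 (Gbp6), 0.71 (Gbp8), 0.43 (Gbp9), 0.55 (Gbp10), 0.57 (Ifng), -0.035 (Ifngr2), 0.018 (Jak2), 0.24 (Irf1), 0.53 (Socs1), 0.16 (Stat2) and 0.10 (Irf9). With the macrophage level they turned to 0.26 (Gbp2), 0.26 (Gbp3), 0.17 (Gbp5), 0.17 (Gbp7), 0.26 (Gbp4), 0.26 (Gbp6), 0.31 (Gbp8), 0.24 (Gbp9), 0.032 (Gbp10), -0.033 (Ifngr2), 0.064 (Jak2), 0.11 (Irf1), 0.18 (Socs1), 0.10 (Stat2) and 0.092 (Irf9); the cause was not tested. Without 1 tumour the ranges that crossed 0 were -0.0073 to 0.060 (Ifngr2), -0.033 to 0.011 (Jak1) and -0.048 to 0.0051 (Jak2). The neighbour difference was 0.032 to 0.062 on chromosome 3 (0.062 without p95HER2 8, 0.057 without EV 1) and 0.064 to 0.10 on chromosome 5 without 1 tumour, and on chromosome 5 it passed the threshold in each. With no filter the adjusted p of Irf7 was 0.0954, and that of Atg16l1 was 0.0701; with library totals only Atg16l1 was at 0.0533.

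Of all genes tested 1743 were called, against 2367 by DESeq2, 2277 by voom, 1352 with no filter, 554 with the T cell and cytotoxic covariate, 172 with the macrophage covariate, 52 against a fold of 1.5 and 1289 to 2331 without 1 tumour. No paired analysis was possible because the labels give the tumours no shared replicate numbers. Depth limits Gbp10, at 25 counts in its lowest library, and Gbp2b and Gbp11, which were not tested. It also limits Ifng, which was at most 0.673 CPM in p95HER2 tumours and did not pass the filter at 1 CPM in 8 libraries.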
